A study of Mus musculus with 9 samples.

Results

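The response of MyD88-deficient mouse embryonic fibroblasts to transfected double-stranded DNA (dsDNA) was read from 2 arrays, 1 of MyD88KO cells (genotype MyD88-/-) transfected with dsDNA, labelled ISD, and 1 of MyD88KO mock cells. A gene was represented by the probe set with a single gene symbol and the highest mean over the 9 arrays of the series, and it was kept when the brighter of these 2 arrays reached 4.44, the median over every deposited value. By this rule 14027 of 22180 genes were kept and 8153 were not. Just inside the limit was Slc13a2os, with a log2 signal of 4.445 on its brighter array, and just outside was 4931419H13Rik, with 4.444. The comparison arrays were mock and dsDNA arrays of WT fibroblasts (genotype STING+/+) and of SKO fibroblasts, which lack STING (genotype STING-/-). The series also holds an array of cells treated with lipopolysaccharide (LPS) for each of the 3 genotypes, and the treatments lasted 6 h. Each combination of genotype and treatment was measured on 1 array, so a difference between 2 arrays has no replicate check and no error of its own. The labels do not say how many embryos or cultures gave the cells of a genotype, which strain they had or which part of Myd88 was deleted. The titles name the control mock and the protocol names it untreated. Use of transfection reagent in it is not stated in the sources, so the effect of dsDNA and that of transfection cannot be told apart. The protocol writes MyD99KO where the titles write MyD88KO, and the titles were followed.

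In cells that take up DNA into the cytosol, the enzyme cGAS binds it and makes a cyclic dinucleotide that activates STING, a protein of the endoplasmic reticulum. STING recruits the kinase TBK1, which activates the transcription factor IRF3, and NF-kB is activated beside it. Type I interferon made in this way acts on its receptor and switches on interferon-stimulated genes whose products block viral entry, translation or replication. MyD88 relays signals from most Toll-like receptors and from receptors of the interleukin 1 family, and it is not part of the route from cGAS to STING. Fibroblasts are known for making interferon beta and chemokines when cytosolic DNA is sensed.

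Among genes at least 2-fold higher with dsDNA, each of 3 motifs was in a larger share of promoters than over the genes kept. Promoter sequences are therefore shown first. They are from RefSeq (GRCm38.p6), run 5′ to 3′ along the gene's strand and cover 250 bases before to 50 bases after the start of the gene. Capitals mark matches to 3 motifs, searched on both strands. The core of the interferon-stimulated response element was GAAA, any 2 bases and GAAA again. The core of STAT sites was TTC, any 3 bases and GAA. The NF-kB site was GGGA, any 2 bases and TTCC. Matches of different motifs could overlap.
Ifi205, chr1:174031706-174032005, minus strand: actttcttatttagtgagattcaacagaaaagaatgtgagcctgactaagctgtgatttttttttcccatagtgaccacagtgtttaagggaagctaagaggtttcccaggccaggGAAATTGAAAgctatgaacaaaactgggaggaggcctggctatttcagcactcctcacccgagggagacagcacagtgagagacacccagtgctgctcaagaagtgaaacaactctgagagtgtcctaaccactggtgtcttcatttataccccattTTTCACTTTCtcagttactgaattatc
Ifit1, chr19:34640639-34640938, plus strand: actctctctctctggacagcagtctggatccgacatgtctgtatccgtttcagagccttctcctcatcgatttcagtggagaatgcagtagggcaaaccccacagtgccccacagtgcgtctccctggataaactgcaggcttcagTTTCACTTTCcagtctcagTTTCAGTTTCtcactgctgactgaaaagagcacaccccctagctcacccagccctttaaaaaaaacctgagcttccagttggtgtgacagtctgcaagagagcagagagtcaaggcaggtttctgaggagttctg
Ifi207, chr1:173741760-173742059, minus strand: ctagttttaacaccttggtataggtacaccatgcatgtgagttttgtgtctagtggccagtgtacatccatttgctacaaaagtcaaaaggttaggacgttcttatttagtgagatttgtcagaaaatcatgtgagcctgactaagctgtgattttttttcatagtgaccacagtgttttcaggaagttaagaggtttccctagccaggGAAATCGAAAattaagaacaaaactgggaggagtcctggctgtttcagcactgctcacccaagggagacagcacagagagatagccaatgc
Gbp5, chr3:142496684-142496983, plus strand: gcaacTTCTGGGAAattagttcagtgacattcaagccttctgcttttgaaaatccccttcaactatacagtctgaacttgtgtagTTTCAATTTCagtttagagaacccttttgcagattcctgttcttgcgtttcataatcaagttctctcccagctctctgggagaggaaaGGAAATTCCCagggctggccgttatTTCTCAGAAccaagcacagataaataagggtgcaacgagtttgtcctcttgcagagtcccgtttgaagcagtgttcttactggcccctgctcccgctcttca
Ifnb1, chr4:88522745-88523044, minus strand: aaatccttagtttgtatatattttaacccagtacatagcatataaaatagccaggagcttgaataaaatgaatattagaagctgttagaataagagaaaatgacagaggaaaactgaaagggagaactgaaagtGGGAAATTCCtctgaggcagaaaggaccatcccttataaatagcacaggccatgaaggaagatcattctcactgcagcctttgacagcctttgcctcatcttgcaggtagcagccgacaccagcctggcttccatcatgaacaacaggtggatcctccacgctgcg
Jag1, chr2:137116471-137116770, minus strand: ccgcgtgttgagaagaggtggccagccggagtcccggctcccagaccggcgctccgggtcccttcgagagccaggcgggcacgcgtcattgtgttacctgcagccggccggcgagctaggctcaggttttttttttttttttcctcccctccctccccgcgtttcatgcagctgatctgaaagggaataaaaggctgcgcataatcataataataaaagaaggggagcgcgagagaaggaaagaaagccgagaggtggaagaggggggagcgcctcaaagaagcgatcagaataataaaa
Ifi205 and Ifit1 stand for the largest differences from mock, and each held 2 matches to the interferon-stimulated response element core, at positions -134 and 24 in Ifi205 and at positions -104 and -85 in Ifit1, counted from the gene's start. Ifi207 and Gbp5 stand for genes with a larger difference in MyD88KO than in WT. Ifi207 held 1 such core at position -41, and Gbp5 held 1 at position -165 beside 2 STAT cores at positions -245 and -52 and an NF-kB match at position -77. Ifnb1, the interferon beta gene, held the NF-kB match at position -116. Jag1, one of the genes lower with dsDNA, held none of the 3 motifs, and neither did the windows of Cmpk2 and Cxcl9, which were higher, or of Trib2, which was lower. No match says only that these letters are not in this window.

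Of the genes kept, 10936 had a promoter in the table, with 13820 promoters in all, of which 2.89% held the interferon-stimulated response element core. Among the 170 promoters of the genes at least 4-fold higher with dsDNA the share was 24.1%, or 41 promoters. Among the 281 promoters of genes between 2-fold and 4-fold higher it was 12.1%, and among the 47 promoters of genes at least 2-fold lower it was 2.13%, or 1 promoter. The NF-kB site was in 5.29% of the promoters of genes at least 4-fold higher, against 1.49% over the genes kept. The STAT core was in 9.41% of the promoters of genes at least 4-fold higher and in 11.4% of those between 2-fold and 4-fold higher, against 6.55% over the genes kept. Over all 32851 promoters of the table the shares were 3.44%, 8.3% and 1.47% for the response element, the STAT core and the NF-kB site. Genes with several promoters count more than once, and the shares are a description with no test.

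**Figure D1:**
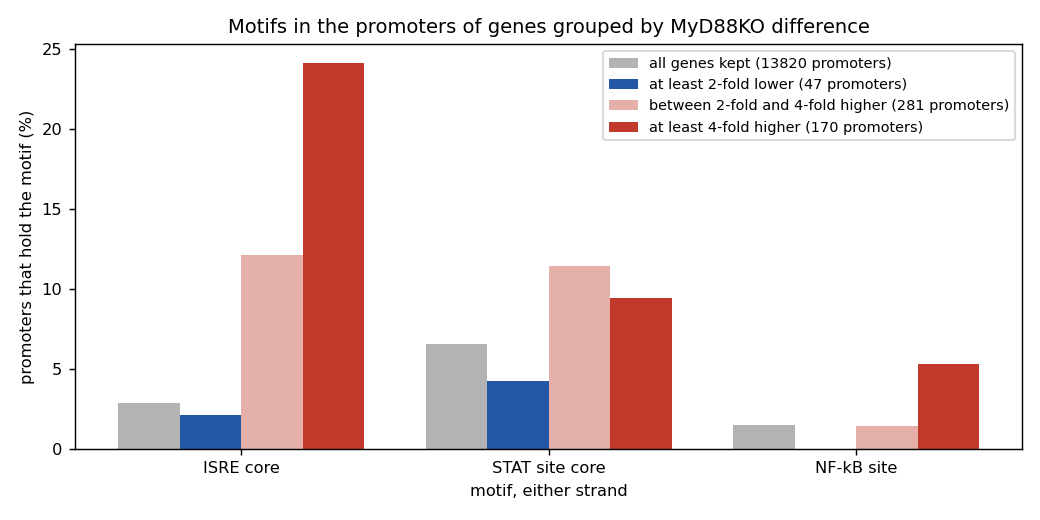
Share of promoters, in percent, that hold each of the 3 motifs on either strand, for all genes kept and for genes grouped by their dsDNA minus mock difference in MyD88KO. The response element core is in 24.1% of the promoters of genes at least 4-fold higher and in 2.89% over all genes kept. Of the 47 promoters of genes at least 2-fold lower, 0 hold the NF-kB site, near the share of 1.49% over all genes kept.

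The labels and the cell type were examined before the response. In MyD88KO the STING gene Sting1 had 8.73 with mock and 9.32 with dsDNA on the log2 scale, and in SKO 4.54 and 4.61, which is the genotype labelled as lacking it. Myd88 had 6.99 and 8.21 in MyD88KO and 7.52 and 8.95 in WT. The part of the transcript covered by its probes is not stated in the sources, so this gene checks nothing. Fibroblast genes were bright in MyD88KO, with Col1a1 at 12.18 and Vim at 12.66 in mock. The 15 fibroblast markers measured had a median mock signal of 10.43 against 8.81 in WT. Of 15 leukocyte and macrophage markers kept, 0 differed 2-fold between dsDNA and mock, near the share over all genes kept (3.31% higher and 0.371% lower). Over the 17 such markers measured, the summed log2 signal was 98.0 with mock and 96.1 with dsDNA in MyD88KO, and 94.0 and 91.2 in WT. The pan-leukocyte gene Ptprc had 4.75 and 5.45 and the macrophage gene Adgre1 had 5.46 and 4.91 in MyD88KO, all above the array median. The 17 markers had a median mock signal of 5.68 in MyD88KO and 5.41 in WT. In MyD88KO mock, 15 of the 17 were at or above the median over every deposited value. The MyD88KO cultures also differed from WT in sex-linked transcripts: Xist had 8.71 with mock and 8.92 with dsDNA against 7.01 and 7.27 in WT, and Uty had 3.07 and 3.01 against 6.33 and 6.41. Eif2s3y, also Y-linked, had 3.35 and 4.56 against 7.60 and 7.62, so it was at least 2-fold higher with dsDNA in MyD88KO, from a dim mock signal. The 23 proliferation genes had a median mock signal of 8.77 in MyD88KO and 7.70 in WT. These differences move with the genotype, and their part in any difference between MyD88KO and WT was not tested.

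With dsDNA, interferon-stimulated genes of MyD88KO cells stood far above mock, while the genes below mock were fewer and differed less. Of the genes kept, 464 were at least 2-fold higher with dsDNA than with mock (3.31%) and 52 were at least 2-fold lower (0.371%). This left 13511 in between. The counts in the lists below are to be read beside these shares. At least 4-fold higher were 170 genes (1.21%), of which 50 were at least 16-fold higher, and at least 4-fold lower were 2 genes, Trib2 and Jag1. Of the 464 genes, 102 had a mock signal below 4.44 and were kept only because of the dsDNA array. Lists below for which no such count is given can hold such genes too. Of 13924 genes kept by the same rule in WT, 270 were at least 2-fold higher (1.94%) and 14 lower (0.101%). Of the 14027 genes kept in MyD88KO, 20 were at least 2-fold higher in SKO (0.143%) and 0 lower. Near the 2-fold limit, Elmod2 and Aar2 differed from mock by 1.01 on the log2 scale and Lnpk by 0.997, and below mock Kif21b and Prickle1 differed by -1.01 and Cnst by -0.98.

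A limma fit across 14737 genes, in which the mock and dsDNA arrays of SKO stood for the spread, left 1 residual degree of freedom and called 0 genes in either direction at an adjusted p under 0.05. The lowest adjusted p was 0.154, and 3595 genes had an unadjusted p under 0.05. When the spread was taken instead from the LPS responses of WT and SKO, limma called 555 genes positive (3.77%) and 179 negative (1.21%). Among these were 393 of the 464 genes at least 2-fold higher and 47 of the 52 at least 2-fold lower. With the SKO pair as the spread but quantile scaling of the arrays, it called 524 positive and 169 negative. The calls thus depend on the pair of arrays that measures the spread and on the scaling. The adjusted p-values below are those of limma with the LPS responses as the spread, except where the main fit is named. Because the main fit called no gene, genes are described as higher or lower than mock. The adjusted p-values rest on how far the arrays that measure the spread differ, which may be technical. In the main fit a response of SKO to dsDNA counts as spread, and 16 of the 464 genes were at least 2-fold higher in SKO. With the LPS responses, a difference between WT and SKO in that response counts as spread.

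Several transcripts of the DNA sensing route itself were higher with dsDNA. Of 14 genes of cytosolic DNA sensing kept, 6 were at least 2-fold higher (42.9%, against 3.31% over all genes kept) and 0 lower. Their median log2 difference was 0.70 against 0.10 in WT and -0.03 over all genes kept. Cgas, the sensor, had 5.47 with mock and 7.22 with dsDNA in MyD88KO, 4.19 and 5.16 in WT and 4.67 and 4.55 in SKO. Its mock signal was thus higher in MyD88KO than in WT, and its difference from mock was 1.75 (limma adjusted p = 0.0108). Tbk1, the kinase that STING recruits, differed by 1.06 in MyD88KO and 0.45 in WT. Ifi204, a DNA-binding protein of the IFI200 family, went from 2.81 to 8.15, against 1.81 to 6.12 in WT. Samhd1, an enzyme that degrades deoxynucleotides, differed by 1.68 in MyD88KO and 0.72 in WT. Irf3, the factor that TBK1 activates by phosphorylation, differed by 0.04, so its transcript was nearly level.

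Of the interferon genes, one of the beta and one of the alpha class stood above mock by 2-fold or more. Ifnb1 had 3.49 with mock and 6.21 with dsDNA in MyD88KO, 2.75 and 4.96 in WT and 2.77 and 2.58 in SKO. Both STING-sufficient genotypes were higher with dsDNA, and the MyD88KO difference of 2.72 had a standard error of 0.15 in the main limma fit (adjusted p = 0.154). Ifna4, an interferon alpha gene, went from 6.43 to 7.81 in MyD88KO, from 6.70 to 7.32 in WT and, in SKO, from 6.37 to 5.97. These were the 2 of 10 interferon genes kept that were at least 2-fold higher, and the median of the list was 0.21.

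Several sensors of RNA and factors that carry the interferon signal were above mock. Of 9 RNA sensing genes, 6 were at least 2-fold higher, with a median of 2.56 in MyD88KO, 1.67 in WT and 0.38 in SKO. Ifih1, which encodes the sensor MDA5, went from 6.01 to 12.04 in MyD88KO, from 6.17 to 11.93 in WT and, in SKO, from 6.83 to 7.44. Dhx58, the related helicase LGP2, differed by 2.75 in MyD88KO and 1.36 in WT. Trim25, a ubiquitin ligase of the RIG-I route, differed less in MyD88KO than in WT, by 2.82 against 3.59, from a mock signal of 7.43 against 6.11. Of 12 IRF and STAT genes, 6 were at least 2-fold higher and 10 above 0, with a median of 1.3. Irf7, the IRF that amplifies interferon alpha transcription, went from 5.92 to 10.54 in MyD88KO and from 5.63 to 9.44 in WT. Stat2 and Irf9, partners in the interferon receptor's transcription complex, differed by 4.23 and 2.79 in MyD88KO and by 4.29 and 2.72 in WT.

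Antiviral effectors held the largest differences from mock. Cmpk2, a mitochondrial nucleotide kinase, had signals of 3.80 with mock, 11.50 with dsDNA and 7.51 with LPS in MyD88KO. In WT its mock and dsDNA signals were 3.98 and 11.43. In SKO they were 4.03 and 5.55, a difference that the main limma fit counts as spread. The MyD88KO difference was 7.70 from a mock signal below 4.44, with a standard error of 1.09 in the main limma fit (adjusted p = 0.167). Of 19 restriction factors, 18 were at least 2-fold higher in MyD88KO, as were 18 in WT, with medians of 3.11 and 2.64. Among them Rsad2, the enzyme viperin, went from 5.52 to 11.39, and Mx2, a dynamin-like GTPase, from 2.82 to 8.67. Of the 19 restriction factors, 5 had a MyD88KO mock signal below 4.44, so they were kept through the dsDNA array. Bst2, which tethers virions to the cell, went from 9.0 to 10.89.

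Transcripts of proteins that bind or answer foreign RNA differed in the same direction. Of 7 genes of the OAS family, 6 were at least 2-fold higher in MyD88KO and 7 in WT. The median was 4.62 in MyD88KO, 3.45 in WT and 0.31 in SKO. Of the 7 genes, 3 had a MyD88KO mock signal below 4.44, so they were kept through the dsDNA array. Oasl1 went from 5.23 to 11.63 in MyD88KO and from 5.13 to 11.09 in WT. Of 9 IFIT and IFITM genes, 6 were at least 2-fold higher. Of these 9, 3 had a MyD88KO mock signal below 4.44 and were likewise kept through the dsDNA array. Ifit1, which binds RNA that lacks the host's cap methylation, went from 4.63 to 11.91 in MyD88KO, from 4.50 to 11.71 in WT and, in SKO, from 3.88 to 6.70. Ifitm3, which hinders viral fusion, differed by 0.90 and stayed under 2-fold.

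All 6 genes kept of the ISG15 system, a ubiquitin-like modifier with its enzymes, were at least 2-fold higher, with a median of 3.58 in MyD88KO and 3.36 in WT. Isg15 itself went from 6.01 to 9.90 and the ligase Herc6 from 5.62 to 10.33. Usp18, which removes ISG15 and restrains the interferon receptor, went from 4.53 to 11.61, against 5.05 to 11.20 in WT. Of 13 PARP genes 8 were at least 2-fold higher, led by Parp14 with a difference of 6.13. Of 15 TRIM genes 10 were, with Trim21, an antibody receptor of the cytosol, going from 4.92 to 9.58. Of these 15, 4 had a MyD88KO mock signal below 4.44, so they were kept through the dsDNA array. Of 6 Schlafen genes 2 were at least 2-fold higher, Slfn5 and Slfn2, with differences of 2.94 and 2.59.

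Interferon-inducible GTPases, which attack the vacuoles of intracellular pathogens, had a median difference of 4.47 in MyD88KO and 2.52 in WT over 11 genes, 10 of which were at least 2-fold higher. Of these 11 genes, 7 had a mock signal below 4.44, so they were kept through the dsDNA array. Gbp7 went from 4.57 to 10.97 in MyD88KO and from 4.50 to 10.44 in WT. Irgm1, brighter in mock, went from 6.73 to 9.41 and from 6.83 to 9.35. The response of this gene was nearly equal in the 2 genotypes, 2.68 against 2.52. The GTPase genes are recently duplicated and near-identical copies can share probe signal, so each of these values is uncertain.

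**Figure D2:**
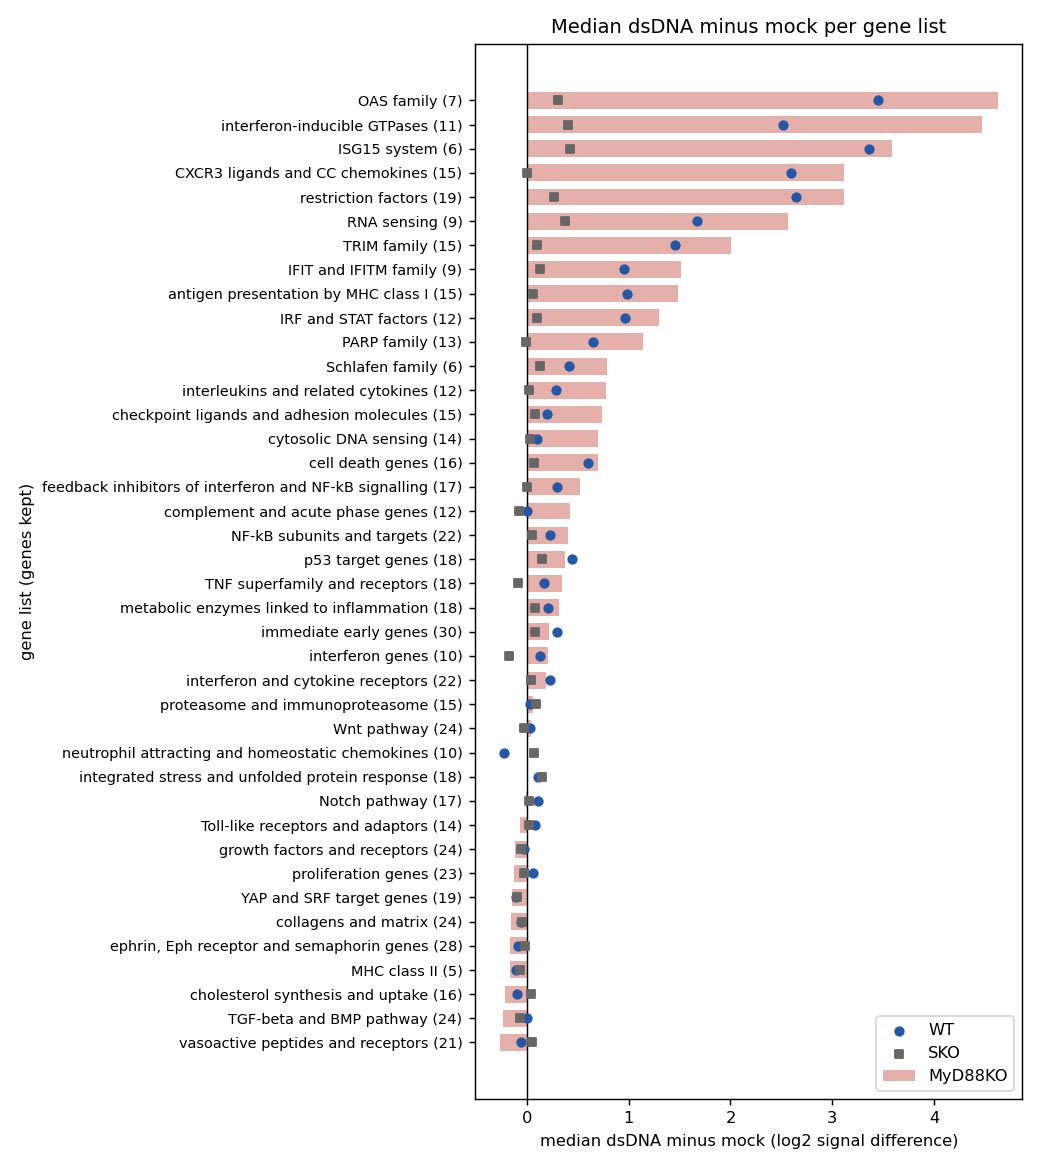
Median dsDNA minus mock difference (log2) over the genes kept of each gene list other than the cell type and sex-linked markers, with the number of genes in parentheses. Bars are MyD88KO, circles WT and squares SKO, 1 array per group and treatment; the OAS family, with a MyD88KO median of 4.62, is at the top and the vasoactive list, with -0.26, at the bottom.

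Several transcripts of antigen presentation by MHC class I were higher, from peptide supply to the heavy chain. Of 15 genes, 10 were at least 2-fold higher in MyD88KO against 6 in WT, the medians were 1.49 and 0.99, and 14 of the 15 differed more in MyD88KO. Nlrc5, the transactivator of class I genes, went from 4.50 to 7.35 in MyD88KO and from 4.26 to 5.89 in WT. Tap1, a peptide transporter subunit, went from 5.82 to 10.00 and from 6.16 to 9.20. H2-K1, a classical heavy chain, went from 6.78 to 8.94 and from 5.87 to 7.23, while B2m, the light chain, was bright in mock and differed by 0.63. Of 15 proteasome genes 4 were at least 2-fold higher, and all 4 belong to the immunoproteasome or its activator. These were Psmb10, with a difference of 2.47, Psmb8 with 1.86, Psmb9 with 1.68 and Psme1 with 1.12. Of 5 MHC class II genes kept, 0 were 2-fold higher or lower, and their median was -0.16. In a list of 5 genes, 0 is near the share over all genes kept, 3.31% higher and 0.371% lower.

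Surface ligands and cytokines that speak to T cells differed in the same direction. Of 15 checkpoint ligands and adhesion molecules, 6 were at least 2-fold higher in MyD88KO and 3 in WT. Cd274, the checkpoint ligand PD-L1, went from 5.24 to 11.11 in MyD88KO, from 5.28 to 10.67 in WT and, in SKO, from 6.27 to 7.0. Cd40, a costimulatory receptor, went from 5.57 to 6.88 in MyD88KO and from 6.22 to 6.38 in WT (limma adjusted p of the MyD88KO response 0.031). Il15, a cytokine for natural killer cells and memory T cells, differed by 2.71 and its receptor chain Il15ra by 2.04. Il33, an alarmin, went from 4.14 to 9.92 in MyD88KO and from 4.53 to 9.02 in WT, while Il1b went from 3.68 to 3.03.

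Chemokines differed by group. Of the 15 CXCR3 ligands and CC chemokines kept, 4 had a MyD88KO mock signal below 4.44, so they were kept through the dsDNA array. Of the 15, 13 were at least 2-fold higher, with a median of 3.11 in MyD88KO, 2.59 in WT and 0.00 in SKO. Most of these 13 did not pass limma with the LPS responses as the spread. Cxcl10, a CXCR3 ligand that attracts activated T cells, went from 5.82 to 12.53 in MyD88KO, from 5.63 to 12.25 in WT and, in SKO, from 5.38 to 7.25. Ccl5 went from 5.41 to 12.02, from 5.89 to 11.79 and from 6.23 to 6.69. Ccl2, which attracts monocytes, went from 7.75 to 12.20 in MyD88KO and from 7.37 to 11.59 in WT, while in SKO both arrays were high, at 11.27 and 11.45. Of 10 neutrophil attracting and homeostatic chemokines, 1 was at least 2-fold higher, Cxcl16, and Cxcl1 was level at 5.28 and 5.27. In this group of genes WT had a median of -0.22 and MyD88KO of 0.01.

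Targets of NF-kB had a smaller median difference than most interferon-stimulated lists. Of 22 NF-kB subunits and targets, 7 were at least 2-fold higher in MyD88KO and 3 in WT, with medians of 0.41 and 0.23. Most of these 7 did not pass limma with the LPS responses as the spread. Tnfaip3, a deubiquitinase that restrains NF-kB, went from 6.27 to 8.68 in MyD88KO, from 7.22 to 8.55 in WT and, in SKO, from 8.22 to 8.07. Nfkbia, the inhibitor IkB alpha, went from 7.77 to 9.79 in MyD88KO and from 7.62 to 9.01 in WT. For Tnfaip3 the mock arrays of MyD88KO and WT lay further apart than the dsDNA arrays, and for Nfkbia the reverse held. Il6, an acute phase cytokine, went from 4.75 to 8.46 in MyD88KO, from 4.77 to 7.60 in WT and, in SKO, from 7.26 to 7.52. Tnf went from 5.25 to 6.98 in MyD88KO and from 5.20 to 7.77 in WT, a smaller difference in MyD88KO that limma did not call in its response (adjusted p = 0.443). Of 14 Toll-like receptor genes and adaptors kept, 3 were at least 2-fold higher (21.4%, against 3.31% over all genes kept). These were Tlr3, Tlr2 and Myd88, and the median of the list was -0.06.

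Genes of cell death and of the p53 response were also among those above mock. Of 16 cell death genes, 8 were at least 2-fold higher in MyD88KO and 6 in WT. Casp4, the caspase that senses cytosolic lipopolysaccharide, went from 3.87 to 7.44, and Mlkl, the effector of necroptosis, from 6.82 to 9.81, while its kinase Ripk3 was level at 8.89 on both arrays. Zbp1, a nucleic acid sensor that engages that kinase, went from 4.80 to 8.32 in MyD88KO and from 4.72 to 6.70 in WT. Of 18 p53 target genes, 5 were at least 2-fold higher in MyD88KO (27.8%, against 3.31% over all genes kept) and 0 in WT. In a list of 18 genes, 0 is near the share over the genes kept in WT, 1.94%. The list medians were 0.38 and 0.45, the reverse order. Pmaip1, a death-promoting BCL2 relative, went from 6.80 to 8.30 in MyD88KO and from 8.93 to 9.49 in WT, and Btg2, an antiproliferative gene, from 7.76 to 9.02 and from 8.79 to 9.70. Both were lower in MyD88KO than in WT with mock and stayed below the WT signal with dsDNA.

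Other lists ranged from no 2-fold difference to a share above that of all genes kept, 3.31%. Of 30 immediate early genes 4 were at least 2-fold higher in MyD88KO (13.3%) and 4 in WT, with Atf3, a stress transcription factor, going from 6.47 to 9.17 in MyD88KO and from 6.87 to 10.04 in WT. Of 18 genes of the integrated stress and unfolded protein response and of 16 of cholesterol synthesis, 0 were 2-fold higher or lower. In lists of this size, 0 is near the share over all genes kept. Of 23 proliferation genes 1 was higher (4.35%), near the share over all genes, namely Ccne1, which encodes cyclin E1 and differed by 1.18 in MyD88KO and 1.11 in WT. Of 24 collagen and matrix genes 1 was (4.17%), also near that share, namely Has2, the hyaluronan synthase, which went from 10.22 to 11.65 in MyD88KO and from 10.52 to 11.50 in WT (limma adjusted p of the MyD88KO response 0.00368).

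The genes furthest below mock were those of the pseudokinase Trib2 and the Notch ligand Jag1. Over the 52 genes the median was -1.12 in MyD88KO, -0.52 in WT and -0.11 in SKO, and 47 were below 0 in WT, of which 4 at least 2-fold. With LPS the same genes had a median of -0.03 in MyD88KO. Trib2 had signals of 7.48 with mock, 4.80 with dsDNA and 7.35 with LPS in MyD88KO, 7.23 and 5.78 with mock and dsDNA in WT and 7.27 and 7.36 in SKO. It was lowest in the MyD88KO dsDNA array, and its difference of -2.68 (standard error 0.11) was 6.41-fold (limma adjusted p = 0.00368). Jag1 went from 9.74 to 7.72 in MyD88KO and from 9.02 to 8.0 in WT, with 8.89 and 8.86 in SKO. The MyD88KO array was the highest of these with mock and the lowest with dsDNA, and its difference of -2.03 had an adjusted p of 0.00368 in limma.

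Notch genes did not share one direction. Dll1, another Notch ligand, went from 4.31 to 6.40 in MyD88KO and from 4.76 to 5.15 in WT, while Lfng, a glycosyltransferase that tunes Notch, went from 7.34 to 6.29 and from 7.26 to 6.40. Of 17 Notch pathway genes, 1 was thus at least 2-fold higher (5.88%) and 2 lower, with a median of -0.01. Over all genes kept the shares were 3.31% higher and 0.371% lower. Spry1, a feedback inhibitor of receptor tyrosine kinase signalling, went from 8.40 to 6.94 in MyD88KO and from 7.20 to 6.41 in WT. Fgfr2, a fibroblast growth factor receptor, went from 7.62 to 6.49, and Epha2, an ephrin receptor, from 8.68 to 7.58. Pgf, placental growth factor, went from 6.70 to 5.31 in MyD88KO and from 7.44 to 6.95 in WT. Fbxo32, a ubiquitin ligase subunit known from muscle atrophy, went from 8.78 to 7.36 in MyD88KO and from 7.32 to 6.87 in WT, and it was brighter in MyD88KO than in WT with either treatment.

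Vasoactive genes had the lowest median of the pathway lists, -0.26 in MyD88KO against -0.05 in WT. Of 21 genes, 0 were at least 2-fold higher and 3 were lower, against 3.31% and 0.371% over all genes kept. In a list of 21 genes, 0 higher is near that share. Edn1, the vasoconstrictor endothelin 1, went from 7.99 to 6.79 in MyD88KO, from 8.23 to 6.55 in WT and, in SKO, from 7.47 to 6.75, so it was lower with dsDNA in all 3 genotypes and lowest in the WT dsDNA array. Adm, the vasodilator adrenomedullin, went from 7.39 to 6.30 and from 8.39 to 7.29, equal differences in MyD88KO and WT of -1.09 and -1.10. S1pr3, a receptor of sphingosine 1-phosphate, went from 9.90 to 8.83 and from 7.30 to 6.59. Of 24 TGF-beta and BMP genes 2 were at least 2-fold higher (8.33%, against 3.31% over all genes kept) and 1 lower, with a median of -0.23. These were Tgfbr3, a coreceptor, and the ligand Bmp2, with differences of 1.49 and 1.46, and the ligand Bmp4, with -1.10.

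**Figure D3:**
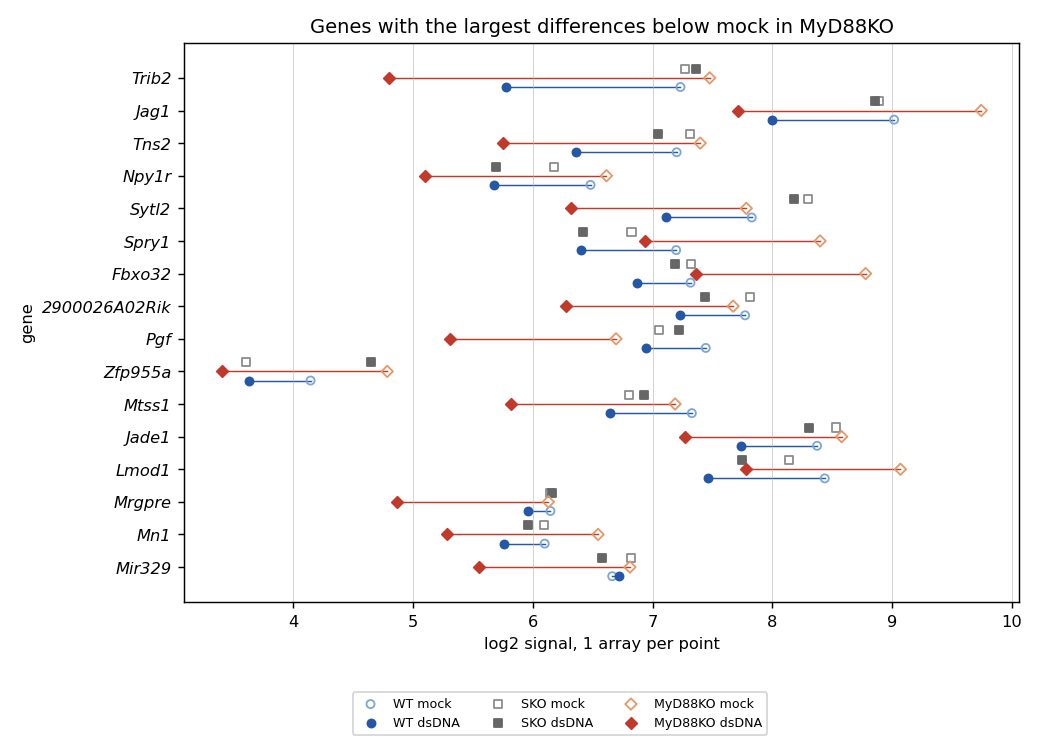
log2 signals of the 16 genes with the largest differences below mock in MyD88KO, 1 array per point; open symbols are mock and filled symbols dsDNA, with diamonds for MyD88KO, circles for WT and squares for SKO. Trib2 goes from 7.48 to 4.80 in MyD88KO, and in most rows the MyD88KO line is longer than the WT line beneath it.

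MicroRNA genes were a larger share of the genes below mock than of those above. Of 137 microRNA genes kept, 3 were at least 2-fold higher and 5 lower, which is 3.65% against 0.371% over all genes kept. Of the 5, the 4 with a sequence shown here are given by their mature forms from RefSeq (GRCm38.p6), with the seed, bases 2 to 8, in capitals.
mmu-miR-329-5p: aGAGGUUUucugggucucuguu
mmu-miR-329-3p: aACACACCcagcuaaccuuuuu
mmu-miR-453: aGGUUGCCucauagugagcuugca
mmu-miR-496a-5p: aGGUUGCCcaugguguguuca
mmu-miR-496a-3p: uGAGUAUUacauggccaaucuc
mmu-miR-194-5p: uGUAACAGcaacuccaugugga
mmu-miR-194-2-3p: cCAGUGGGgcugcuguuaucug
The sequences show that miR-453 and miR-496a-5p share the seed GGUUGCC, while the other mature forms have seeds of their own. Mir329, Mir453 and Mir496a lie in the imprinted Meg3 to Mirg cluster of chromosome 12. Mir329 had 6.81 with mock and 5.55 with dsDNA in MyD88KO, 6.66 and 6.72 in WT and 6.82 and 6.58 in SKO. Mir453 went from 7.80 to 6.74 in MyD88KO and from 7.76 to 7.47 in WT, and Mir496a from 4.77 to 3.60 and from 4.87 to 4.52. The MyD88KO dsDNA array was the lowest of the 6 for each of the 3 genes. Mir194-2, on chromosome 19, went from 4.67 to 3.66 in MyD88KO, which is within the dim range, and from 4.35 to 4.47 in WT. The fifth, Mir145a, went from 6.65 to 5.59 in MyD88KO, from 6.48 to 5.95 in WT and, in SKO, from 6.60 to 6.11 (limma adjusted p of the MyD88KO response 0.136). It was thus below mock in all 3 genotypes. Of 26 genes of the cluster kept, 21 were below 0 in MyD88KO, with a median of -0.37, and 20 in WT, with a median of -0.24. Over all genes kept, 55.7% were below 0 in MyD88KO and 49.3% in WT. In SKO 15 of the 26 were, with a median of -0.03, and with LPS in MyD88KO the median was 0.24. The signals of the cluster lay between 3.60 and 7.80, and a probe set named for a microRNA gene need not read its mature form.

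The response was larger in MyD88KO than in WT for most of the genes that were higher with dsDNA, by size and without a test. Of the 464 genes, 243 were also at least 2-fold higher in WT (52.4%), and of the 270 genes at least 2-fold higher in WT, 241 were in MyD88KO (89.3%). Over the 464 genes the median difference was 1.63 in MyD88KO, 1.05 in WT and 0.08 in SKO, and 419 of them differed more in MyD88KO. This choice of genes favours MyD88KO, so the 270 genes chosen in WT are the stricter view: 195 of them differed more in MyD88KO, by a median of 0.38. Over all genes kept, 44.5% differed more in MyD88KO and the median of the difference was -0.03. The excess was not limited to one size of WT response. It had a median of 0.30 for the 168 genes with WT differences from 1 to 2, of 0.50 for the 48 from 2 to 3, of 0.41 for the 19 from 3 to 4 and of 0.46 for the 35 from 4 to 8.

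**Figure D4:**
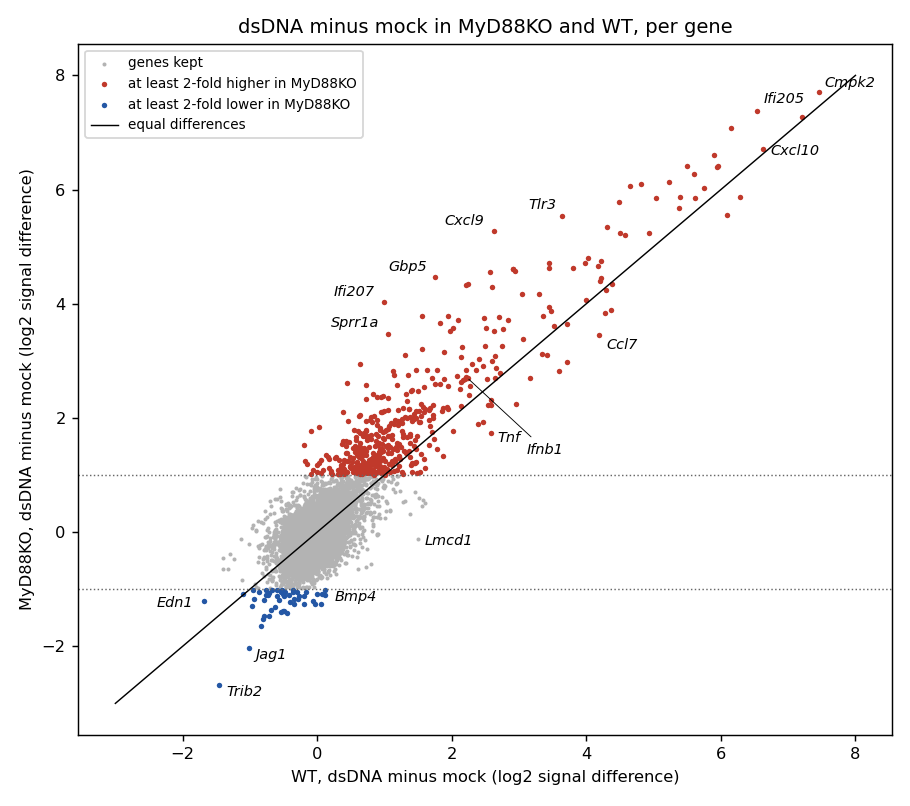
dsDNA minus mock (log2) in MyD88KO on the vertical axis against WT on the horizontal axis, 1 point per gene kept, with genes at least 2-fold higher in MyD88KO in red and at least 2-fold lower in blue. Most red points lie above the line of equal differences, 419 of 464, and most blue points below it, 50 of 52.

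The test of the difference itself called no gene. In the main limma fit, 0 genes passed in either direction, with a lowest adjusted p of 0.425 and 1715 genes at an unadjusted p under 0.05. With the LPS responses of WT and SKO as the spread 0 passed as well, with a lowest adjusted p of 0.32 and 1031 genes at an unadjusted p under 0.05. With the LPS responses of all 3 genotypes as the spread, limma called 2 genes positive, Sprr1a and Clic5, and 1 negative, Bmp4. Without a test, 123 of the genes kept had a difference at least 2-fold larger on the log2 scale in MyD88KO (0.877%) and 21 at least 2-fold smaller (0.15%). When every array compared had to be at or above 4.44, the first count was 59.

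Of the 464 genes, 96 had a response at least 2-fold larger than in WT, and 44 of these were at least 2-fold higher in WT too. These genes were chosen for a bright MyD88KO dsDNA array, and dim mock signals cannot differ much, so the shares that follow only describe them. The dsDNA signal was higher in MyD88KO than in WT for 88 of the 96 and by at least 0.5 for 77, with a median of 1.14. The mock signal was lower in MyD88KO for 66 and by at least 0.5 for 33, with a median of -0.20, and the mock arrays lay within 0.5 of each other for 58.

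Ifi207, a DNA-binding protein gene of the IFI200 family, stood first by size of the excess. In MyD88KO it had 2.88 with mock and 6.92 with dsDNA, 3.39 and 4.39 in WT and 3.09 and 3.70 in SKO. The MyD88KO dsDNA array stood alone above 4.44, so the excess of 3.03 rests on dim signals and its size is uncertain (main limma fit, standard error 0.62, adjusted p = 0.425). Ifi209, a neighbour in the same family, went from 3.0 to 7.36 in MyD88KO and from 2.91 to 5.16 in WT. Gbp5, a guanylate-binding protein that promotes inflammasome activity, went from 3.27 to 7.73 in MyD88KO, from 3.43 to 5.18 in WT and, in SKO, from 3.23 to 2.62. Cxcl9, a CXCR3 ligand known for its response to interferon gamma, went from 4.20 to 9.48 in MyD88KO, from 3.99 to 6.62 in WT and, in SKO, from 4.48 to 4.31. In both genes the dsDNA array of MyD88KO was brighter than that of WT, with excesses of 2.71 and 2.65, while the MyD88KO and WT mock signals were below 4.44 and too dim to compare. Mx1, a restriction factor of influenza virus that is defective in many laboratory strains, went from 2.88 to 7.45 and from 3.02 to 5.59, and the strain of the cells is not stated in the sources. H2-Q4, a nonclassical class I gene, went from 5.19 to 8.98 and from 5.06 to 7.0, an excess of 1.85 that was 1.12 when its 2 probe sets were averaged.

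Other genes with a large excess have other roles. Clic5, a chloride intracellular channel protein, went from 4.62 to 8.41 in MyD88KO, from 4.86 to 6.42 in WT and, in SKO, from 4.81 to 4.72. Xdh, the enzyme xanthine dehydrogenase, went from 3.84 to 5.61 in MyD88KO and from 3.73 to 3.63 in WT, so WT showed no difference above mock. In Xdh the mock signals were dim and differed by little, while in Clic5 a small part of the excess of 2.23 lay on the mock side. Angpt1, a ligand of the endothelial receptor TIE2, went from 3.33 to 7.66 in MyD88KO and from 4.33 to 6.54 in WT, with a part of its excess of 2.12 on the mock side. The excess was 1.03 when the 2 probe sets of Angpt1 were averaged. Tlr3, the endosomal receptor of double-stranded RNA, went from 4.85 to 10.39 in MyD88KO and from 5.62 to 9.26 in WT, with 6.04 and 6.69 in SKO.

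In some genes the excess lay in a lower mock signal. Sprr1a, a cornified envelope protein, had 5.81 with mock and 9.28 with dsDNA in MyD88KO, 8.59 and 9.65 in WT and 8.83 and 8.76 in SKO. Its dsDNA signal in MyD88KO did not exceed that of WT, and the excess of 2.41 had an adjusted p of 0.32 with the LPS responses as the spread, the lowest of that limma fit. Tnfsf18, the ligand of the receptor GITR, went from 3.52 to 6.34 in MyD88KO and from 7.06 to 8.19 in WT, with 7.39 and 7.52 in SKO. Of the 96 genes, 11 had a mock signal at least 2-fold lower in MyD88KO than in WT, and 60 had a dsDNA signal at least 2-fold higher.

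**Figure D5:**
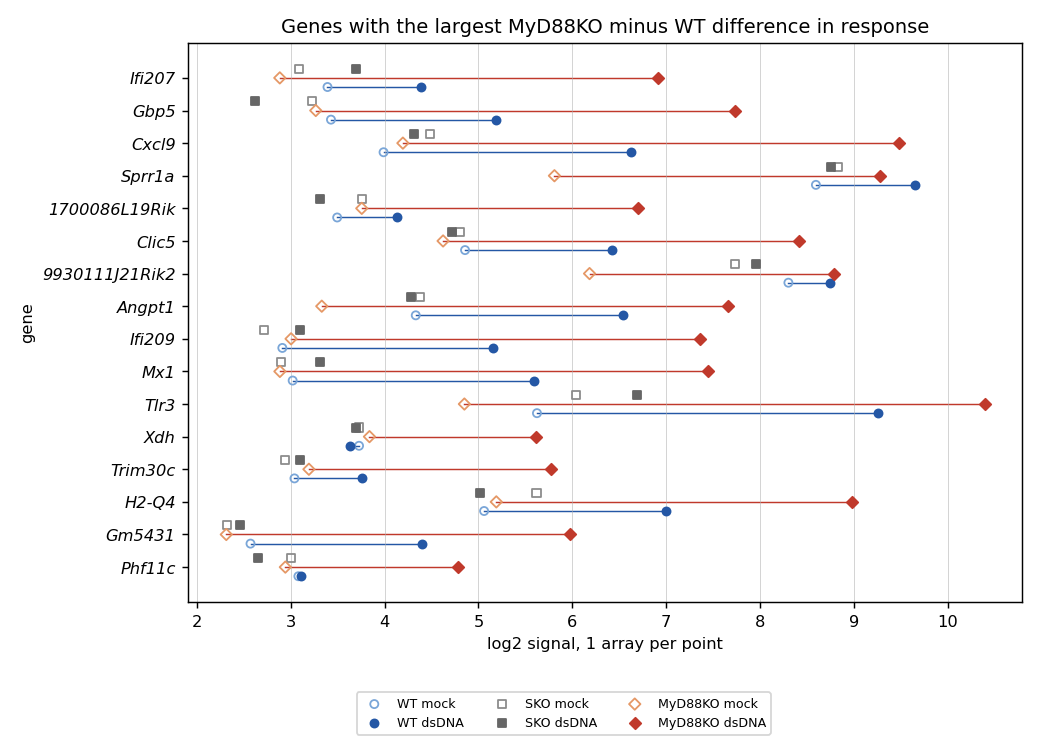
log2 signals of the 16 genes, among those at least 2-fold higher in MyD88KO, with the largest MyD88KO minus WT difference in response, 1 array per point; open symbols are mock, filled symbols dsDNA, diamonds MyD88KO, circles WT and squares SKO. For Gbp5 the MyD88KO dsDNA point, 7.73, lies to the right of the WT dsDNA point, 5.18, while for Sprr1a the MyD88KO mock point, 5.81, lies far to the left.

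Below mock, too, the larger differences were in MyD88KO, in 50 of the 52 genes, a count that the choice of genes in MyD88KO favours. Bmp4, a BMP ligand, went from 8.82 to 7.73 in MyD88KO, from 9.40 to 9.52 in WT and, in SKO, from 8.54 to 8.20. Wnt4, a Wnt ligand, went from 7.46 to 6.21 in MyD88KO, while WT had 5.38 and 5.34 and SKO 5.90 and 5.87. The WT and SKO signals of Wnt4 were thus below the lower MyD88KO array. Sema6d, a transmembrane semaphorin, went from 6.16 to 5.07 in MyD88KO and from 5.98 to 6.05 in WT. The 2 exceptions were Edn1 and Adm, described above.

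At the 2-fold limit fewer genes had a smaller response in MyD88KO than a larger one. Among genes at least 2-fold higher in WT, Lmcd1, a LIM domain transcriptional cofactor, had the largest shortfall in MyD88KO, with 6.08 and 5.95 against 5.38 and 6.88 in WT and 5.96 and 5.94 in SKO. Nr3c2, the mineralocorticoid receptor, went from 5.08 to 5.58 in MyD88KO and from 4.96 to 6.56 in WT. Tbx2, a T-box transcription factor, went from 5.54 to 6.01 and from 5.82 to 7.38. In these 3 genes the WT dsDNA array was the highest of the 6. Oas1c, a member of the OAS family, went from 4.34 to 4.91 in MyD88KO and from 3.77 to 5.34 in WT, and the shortfalls of Nr3c2, Tbx2 and Oas1c lay between -1.10 and -1.01. That of Nr3c2 was -0.33 when its 2 probe sets were averaged.

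LPS gives a second reading of the same cells. Of the 464 genes, 70 were at least 2-fold higher with LPS than with mock in MyD88KO, with a median of 0.31. Both differences use the MyD88KO mock array, so they are set side by side only. Cxcl10 had a signal of 8.81 with LPS against 12.53 with dsDNA and Usp18 of 8.91 against 11.61, while Gbp5 had 3.93 against 7.73 and Cxcl9 4.60 against 9.48. Ifnb1 had 2.36 with LPS against 6.21 with dsDNA, below its mock signal of 3.49, and Clic5 had 4.71 against 8.41, near its mock signal of 4.62.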

How the data were processed

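The authors deposited log2 signals of 41345 probe sets on each of 9 Affymetrix MoGene 2.0 arrays, made with Affymetrix Expression Console 1.3.1.187, per the submitters' processing notes; background correction and summarisation are not stated in the sources. Array medians ran from 4.42 to 4.46, so the values were used unscaled. The platform table names 1 symbol for 23521 probe sets, several for 1814 and none for 16010, and 23328 of the first matched RefSeq genes (GRCm38.p6). Probe sets with several symbols or none are left out of the gene counts, including some interferon-inducible genes. Differences are of log2 signals, counted at 1 (2-fold), and understate the change of dim genes.

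limma 3.58.1 in R 4.3.3 fitted the 14737 genes that reached 4.44 on any of the 9 arrays (lmFit, trended eBayes). Benjamini-Hochberg adjustment ran over all of them, with calls at an adjusted p under 0.05. It had 8 coefficients, with 1 shared by SKO mock and SKO dsDNA, left 1 residual degree of freedom and gave a prior of 0.94 degrees of freedom. Lone arrays were assumed to vary like the shared ones. The alternatives used other spreads, scaling, filters, eBayes settings and probe set rules. Python 3.11.15 did the rest. Members, gene lists and tests were chosen with earlier results of these data known. Named genes are a fixed set of 11 (Sting1, Myd88, Ifnb1, Cgas, Irf7, Tlr3, Il6, Cxcl9, Cxcl10, Jag1 and Edn1), the 24 largest differences above mock and the 16 largest below, the 16 with the largest excess over WT, the 8 with the largest shortfall, the 6 with the largest excess below mock, 2 on each side of the 2-fold limit and up to 5 per list by size. Other list members and genes described here were chosen after their values were seen. The number of arrays limits the precision.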

Additional observations from a re-analysis of the deposited data

Results flagged for a closer look

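For the 6 genes listed here, the difference from mock had opposite signs in MyD88KO and WT, on 1 array each. They are not the only such genes, since Mir194-2, described above, had -1.01 and 0.12. Some of the signs rest on differences near 0, such as 0.06 for Mir329 and 0.07 for Sema6d in WT. The difference of the responses passed no limma test in the main fit. Of the 6, only Bmp4 passed with the LPS responses of 3 genotypes as the spread. The MyD88KO minus WT difference in response was 1.87 for Xdh, -1.31 for Mir329, -1.62 for Lmcd1, -1.02 for Cnksr2, -1.21 for Bmp4 and -1.15 for Sema6d. Cnksr2, a scaffold protein, had 4.14 and 4.13 in MyD88KO against 4.75 and 5.76 in WT. Its MyD88KO signals were nearly equal, so its sign there is uncertain. Both were below 4.44, so Cnksr2 was not among the genes kept in MyD88KO.

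Probe sets outside the gene counts also differed. Of 1064 probe sets with several symbols at or above 4.44 on the brighter MyD88KO array, 40 were at least 2-fold higher with dsDNA in MyD88KO (3.76%) and 2 lower, against 26 higher in WT and 1 in SKO. Of 5996 probe sets with no symbol, 276 were at least 2-fold higher (4.6%) and 144 lower, against 84 higher in WT and 75 in SKO.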

How the results depend on the processing

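Counts of 2-fold differences over all genes moved by under 1.5 times under quantile scaling, median centring, averaging of probe sets and the filters tried, with the exceptions that follow. Counts within lists were recomputed under quantile scaling and averaging only. The 21 genes with a smaller response in MyD88KO became 57 with no filter on dim genes and 10 with the brighter array at or above 6, and the 123 with a larger response became 59 when every array had to reach the median. In the Wnt list the genes above mock went from 2 to 1 under quantile scaling, and in the growth factor list from 2 to 1 when probe sets were averaged. The limma calls depended on the spread and on the scaling: the 0 positive and 0 negative calls of the response became 555 and 179 with the LPS responses of WT and SKO as the spread, 952 and 668 with those of 3 genotypes, and 524 and 169 with the SKO spread under quantile scaling. For the difference from WT, 0 and 0 became 2 and 1 with the LPS responses of 3 genotypes. Of 70 values of named genes, of which some genes have 2, 40 passed with the first spread, 42 with the second and 28 under quantile scaling, and none changed direction. The excess or shortfall against WT moved by over 1.5 times for Nr3c2 (-0.71), Nts (-0.46) and Ifi209 (1.40) with the LPS responses of 3 genotypes, and for Angpt1 (1.03), H2-Q4 (1.12) and Nr3c2 (-0.33) with averaged probe sets. No paired analysis was possible because each group has 1 array and shares 1 replicate number with the others. With 1 array per group, no replicate could be left out. Signal over background limits dim genes: 102 of the 464 genes above mock had a mock signal below the median of all values.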

Other observations

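Of 18 metabolic enzymes linked to inflammation, 6 were at least 2-fold higher in MyD88KO (33.3%, against 3.31% over all genes kept) and 4 in WT. Acod1, which makes itaconate, went from 3.58 to 7.22 with dsDNA, against 3.47 to 7.18 in WT, while both SKO arrays were high, at 6.53 and 6.35. Ch25h, which makes the oxysterol 25-hydroxycholesterol, went from 8.10 to 10.61, against 8.18 to 10.31 in WT. Nampt, an enzyme of NAD synthesis, went from 7.33 to 9.31, against 7.45 to 8.70. Mmp13, a collagenase gene of the NF-kB list, went from 5.52 to 7.48, against 4.60 to 5.79 in WT, with 8.34 and 8.27 in SKO. Nos2 and Ido1, 2 genes known for induction by interferon gamma in macrophages, were near level, with differences of -0.15 and 0.00.

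Receptors of cytokines were mixed: of 22 kept, 5 were at least 2-fold higher (22.7%, against 3.31% over all genes kept) and 0 lower. Their median was 0.19. Il13ra1 went from 7.28 to 9.21 in MyD88KO and from 7.52 to 8.34 in WT, and Osmr, the oncostatin M receptor, from 8.88 to 10.41 and from 8.25 to 9.31. Complement and acute phase genes had a median of 0.43 in MyD88KO and 0.00 in WT over the 12 kept. Among these 12, 3 were at least 2-fold higher in MyD88KO, against 3.31% over all genes kept. A MyD88KO mock signal below 4.44 was found in 3 of the 12, so they were kept through the dsDNA array, which favours MyD88KO. Over the 18 genes measured, the MyD88KO median was 0.32. Serping1, the C1 inhibitor, went from 6.11 to 7.23 in MyD88KO and from 5.45 to 5.84 in WT.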
